A study of Mus musculus with 24 samples.

Results

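The genes described here are 10 that enterocytes use to take up dietary lipid and export it as lipoprotein particles: Apoa1, Apoa4, Apoc3, Apob, Mttp, Fabp1, Fabp2, Cd36, Npc1l1 and Enpp7. They were taken by symbol from a table of 24421 genes, and all 10 were found. RNA had been measured in 24 libraries of sorted gut epithelium, from the colon and the ileum of each of 12 C57BL/6 mice aged 8 to 14 weeks. KO late comprised 3 mice at 8 weeks post chimerism, KO early 4 mice at 2 weeks, WT irradiated 2 mice at 8 weeks, and WT non-irradiated 3 mice labelled as non treated. The labels name the genotype only as KO or WT, while the study's title speaks of gut macrophages deficient for IL-10Rα, the ligand-binding chain of the interleukin-10 receptor. Cells were selected in all groups as Villin-tomato+ and CD45-negative, that is, as cells that carry a red reporter tied to villin, an epithelial brush border protein, and lack the general leukocyte surface protein. In a bone marrow chimera the blood-borne cells come from a donor and the epithelium stays the host's own, so the Il10ra level of these epithelial libraries does not test the KO label. It lay between 4.7 and 31.0 normalised reads in colon and between 1.6 and 31.2 in ileum. A colon and an ileum library with the same mouse number came from the same animal, and the mice of a group were its replicates.

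Fat absorption takes place mainly in the small intestine. Sphingomyelin of the meal is split by the alkaline sphingomyelinase Enpp7, cholesterol enters through Npc1l1, and fatty acids are taken up with the help of the scavenger receptor Cd36. Inside the enterocyte Fabp1 and Fabp2 bind fatty acids, which are re-esterified in the endoplasmic reticulum. There the microsomal triglyceride transfer protein Mttp loads lipid onto Apob, the structural protein of the chylomicron. Apoa1, Apoa4 and Apoc3 are exchangeable apolipoproteins on the surface of these particles, and Apoa1 is also the main protein of high-density lipoprotein. Apoa1, Apoc3 and Apoa4 neighbour each other on mouse chromosome 9, in a cluster that also holds Apoa5, while Fabp2 and Mttp both lie on chromosome 3.

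The promoters of 4 members are shown because the results turn on these genes: Fabp2 and Mttp moved apart in KO colon, Apob came next to Fabp2 in colon in level per transcript length, and Apoa4 varied widely between ileal libraries. Fabp1, not shown, varied more in ileum (9.31-fold from lowest to highest, against 7.35-fold for Apoa4). Each promoter shown is the strand of the gene from RefSeq, build GRCm38.p6, with 250 bases before and 50 bases after the annotated start. Capitals mark matches to CAAAGNNCA, a short form of the element bound by HNF4, a nuclear receptor of enterocytes and hepatocytes. Both strands were searched, and a match on the opposite strand reads TGNNCTTTG as printed.
Fabp2: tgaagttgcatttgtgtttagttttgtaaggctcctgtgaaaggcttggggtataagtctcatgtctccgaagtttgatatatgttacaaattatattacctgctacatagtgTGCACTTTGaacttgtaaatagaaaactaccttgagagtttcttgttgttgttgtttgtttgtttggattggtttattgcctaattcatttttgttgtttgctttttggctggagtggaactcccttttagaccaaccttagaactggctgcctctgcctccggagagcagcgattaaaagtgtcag
Mttp: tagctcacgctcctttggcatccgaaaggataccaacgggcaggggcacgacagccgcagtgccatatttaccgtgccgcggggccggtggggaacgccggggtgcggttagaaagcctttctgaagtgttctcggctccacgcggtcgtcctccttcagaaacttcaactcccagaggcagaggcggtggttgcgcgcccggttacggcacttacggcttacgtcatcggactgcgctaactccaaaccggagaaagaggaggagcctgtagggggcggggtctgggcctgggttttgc
Apoa4: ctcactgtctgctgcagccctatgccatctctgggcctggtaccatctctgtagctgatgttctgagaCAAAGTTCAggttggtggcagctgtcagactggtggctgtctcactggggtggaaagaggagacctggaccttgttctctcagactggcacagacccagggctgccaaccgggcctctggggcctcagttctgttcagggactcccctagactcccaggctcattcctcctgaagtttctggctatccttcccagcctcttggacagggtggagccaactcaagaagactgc
Apob: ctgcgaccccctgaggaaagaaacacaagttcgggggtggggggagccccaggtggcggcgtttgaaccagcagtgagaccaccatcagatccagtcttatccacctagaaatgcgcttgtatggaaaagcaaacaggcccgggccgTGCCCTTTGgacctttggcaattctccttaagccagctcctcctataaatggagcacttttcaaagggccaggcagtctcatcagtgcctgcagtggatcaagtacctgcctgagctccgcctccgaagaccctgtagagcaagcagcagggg
Fabp2 is at chr3:122894822-122895121 on the plus strand, Mttp at chr3:138143369-138143668 on the minus strand, Apoa4 at chr9:46240594-46240893 on the plus strand, and Apob at chr12:7977427-7977726 on the plus strand. Of the 9 members with a promoter in the table, 3 held a match, namely Fabp2, Apoa4 and Apob, against 6.36% of 32851 promoters of the same length. The matches start 137 bases before the Fabp2 start, 182 before the Apoa4 start and 103 before the Apob start. Of further elements searched on both strands, the sequence AGATAA (for GATA factors) was found in 1 of the 9 promoters (Enpp7) and in 11.2% of all. CATAAA, a CDX element, was found in 2 (Cd36 and Fabp1) and in 11.9% of all, and GTTAAT, part of the HNF1 element, in 2 (Fabp1 and Npc1l1) and in 7.10% of all. A match describes letters in the window and is no evidence of binding. Hnf4a itself had a median of 10673 normalised reads over the 12 colon libraries and 11765 over the 12 ileum libraries.

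Values are normalised reads, that is, reads divided by 1 scaling factor per library by the authors. Total reads per library were 8.32 to 18.7 M. The ribosomal precursor Rn45s took 0.0642 to 29.4% of them, most in the ileum of mouse 100 of KO early. Summed epithelial markers were 56874 to 222047 normalised reads in every library, against 349 to 986 for 8 leukocyte markers. Libraries also differed in reads assigned to olfactory and vomeronasal receptor genes, which gut epithelium is not known for. They are given as RPM, reads per M reads outside Rn45s. In colon these were 752 to 1052 RPM in KO late, 429 to 693 in KO early, and 232 to 234 in 3 of the 5 WT mice. The other 2 WT colon libraries, mouse 61 of WT irradiated and mouse 75 of WT non-irradiated, had 592 and 682 RPM and stood apart from the remaining WT libraries. For Mttp, Fabp2, Cd36, Apob and the pathway genes called in KO late colon, values without each of them are given as well.

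All 10 genes were much lower in colon than in ileum, in KO late, in KO early and in WT mice, and in no case did the libraries of the 2 tissues overlap. Together they took 0.0563 to 0.110% of the reads of a colon library, outside Rn45s, and 1.83 to 2.89% of an ileum library. The tissue difference was largest for Apoa4 and Apoa1 and least for Cd36. In the limma fit across all genes all 10 were lower in colon at an adjusted p under 0.05 in each of the 3 comparisons. The share of all 19588 genes called lower was 17.0% in KO late, 6.43% in KO early and 10.9% in WT, and the share whose colon libraries lay wholly below the ileum libraries was 24.4% in KO late, 9.14% in KO early and 8.89% in WT. All 10 were also called in WT without mouse 61 and without mouse 75. The median log2 fold change of the 10, colon over ileum, was -6.81 in KO late, -6.80 in KO early and -7.39 in WT, and that of all genes tested was 0.07 in KO late, -0.09 in KO early and 0.005 in WT. In a bulk library, fewer cells of a type and less RNA per cell cannot be told apart.

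**Figure D1:**
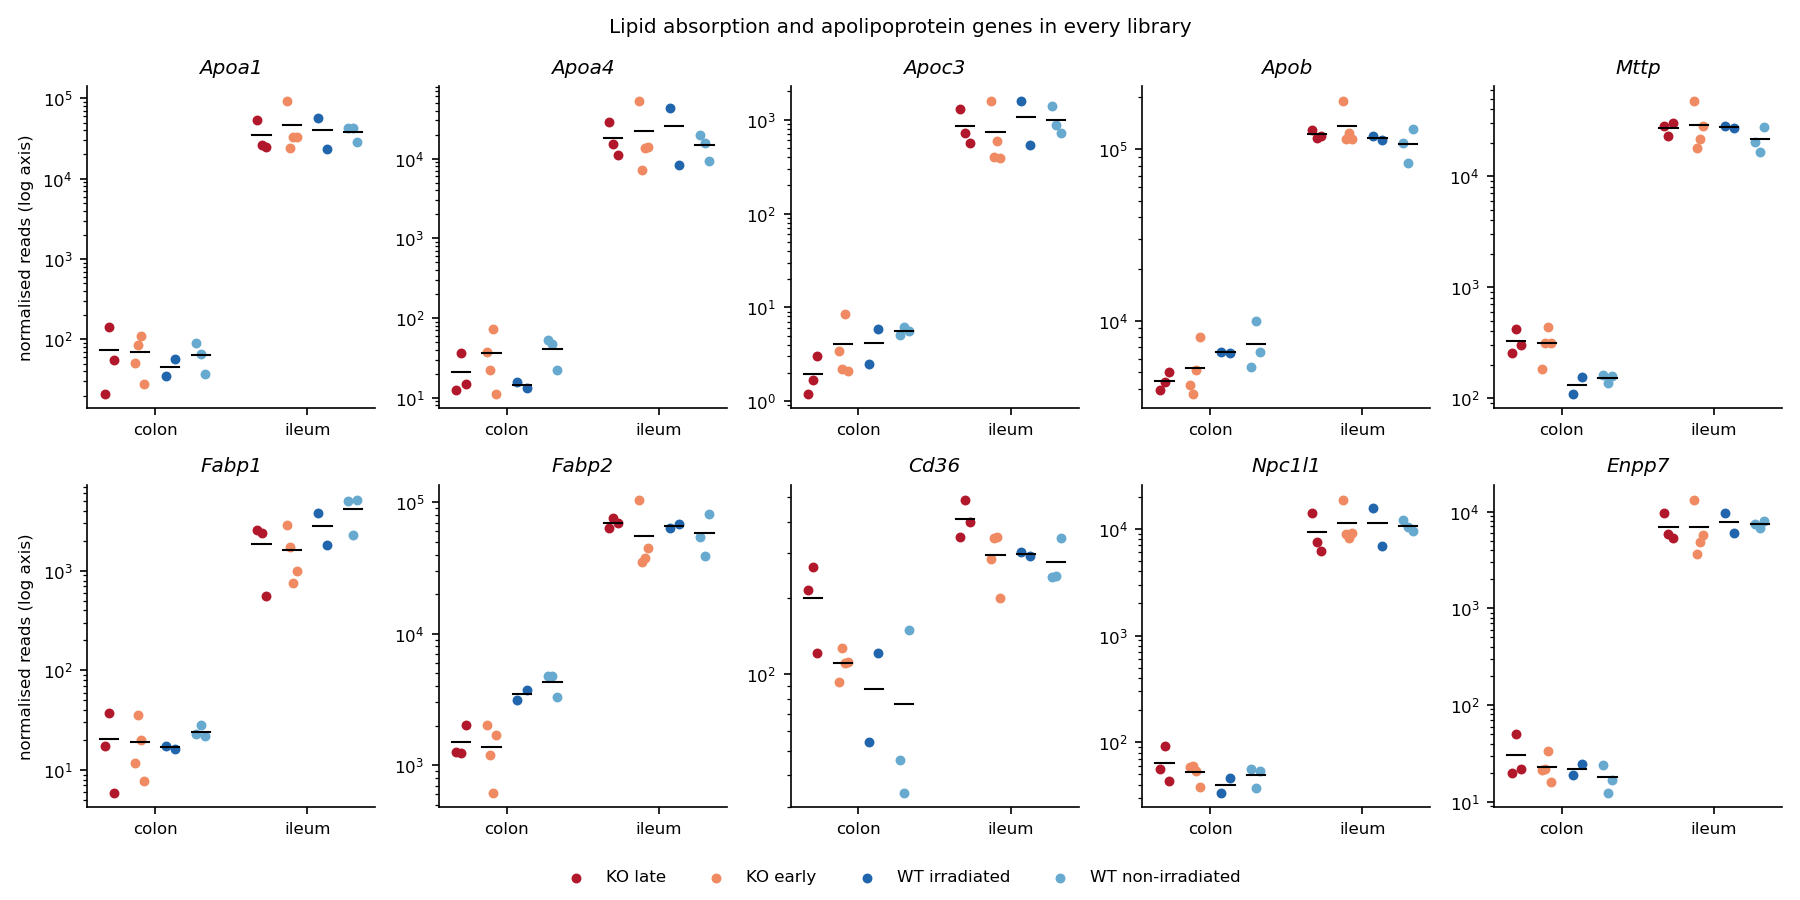
Normalised reads (log axis) of the 10 genes in each of the 24 libraries, by tissue, with 1 point per library and a bar at the group mean. Within each group ileal points lie above colonic points for every gene, with the smallest distance for Cd36, whose colonic values in KO late reach ileal values of other groups, and in colon the KO points lie above WT for Mttp and below WT for Fabp2.

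Among the apolipoproteins, Apoa1 had 21.1, 56.2 and 144.1 normalised reads in KO late colon, against 25063, 26388 and 54040.5 in the ileum of the same group. In WT non-irradiated mice it had 37.0, 65.3 and 90.5 in colon, against 28405.1, 42295.9 and 42346.1 in ileum. These levels correspond to a difference of -9.18 ± 0.59 in KO late and -9.45 ± 0.47 in WT (log2 fold change ± SE, colon over ileum; limma, adjusted p = 1.25e-10 and 6.82e-13). Apoa4 differed by -9.72 ± 0.68 in KO late, -9.08 ± 0.59 in KO early and -9.39 ± 0.54 in WT. Apoc3 was close to the limit of detection in colon, with 1.2 to 8.5 normalised reads over the 12 libraries, against 391.3 to 1594.3 in ileum. It did not reach 10 normalised reads in any colon library and so was tested only across tissues and within ileum.

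Apob kept a substantial level in colon, at 3743.7 to 9938.4 normalised reads over the 12 libraries, with 82425.5 to 191491 in ileum. Its difference was -4.78 ± 0.29 in KO late, -4.71 ± 0.25 in KO early and -4.02 ± 0.23 in WT. Mttp, which must act on Apob for a particle to form, differed more, by -6.40 ± 0.32 in KO late, -6.49 ± 0.28 in KO early and -7.42 ± 0.25 in WT. In WT mice this was 171-fold lower in colon for Mttp and 16.2-fold lower for Apob.

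Of the fatty acid binding proteins, Fabp2 differed by -5.57 ± 0.40 in KO late, -5.30 ± 0.35 in KO early and -3.99 ± 0.32 in WT, and Fabp1 by -6.48 ± 0.63, -6.35 ± 0.55 and -7.24 ± 0.50. Npc1l1 was 141-fold lower in colon than in ileum in KO late, 199.8-fold in KO early and 236-fold in WT. For Enpp7 these values were 233-fold in KO late, 261-fold in KO early and 370.2-fold in WT. Cd36 differed least, by -1.09 ± 0.40 in KO late (adjusted p = 0.0472), -1.37 ± 0.35 in KO early (adjusted p = 0.00785) and -1.99 ± 0.32 in WT (adjusted p = 4.67e-05). In KO late this call was lost without any of the 3 mice, with an adjusted p of 0.100 to 0.215, with edgeR's quasi-likelihood test (adjusted p = 0.0752), with no filter (adjusted p = 0.0564) and with total-count scaling (-0.88 ± 0.53, adjusted p = 0.205). In KO early it was lost with total-count scaling (-1.22 ± 0.46, adjusted p = 0.0772), and without mouse 100 (adjusted p = 0.0520) or mouse 118 (adjusted p = 0.0543).

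**Figure D2:**
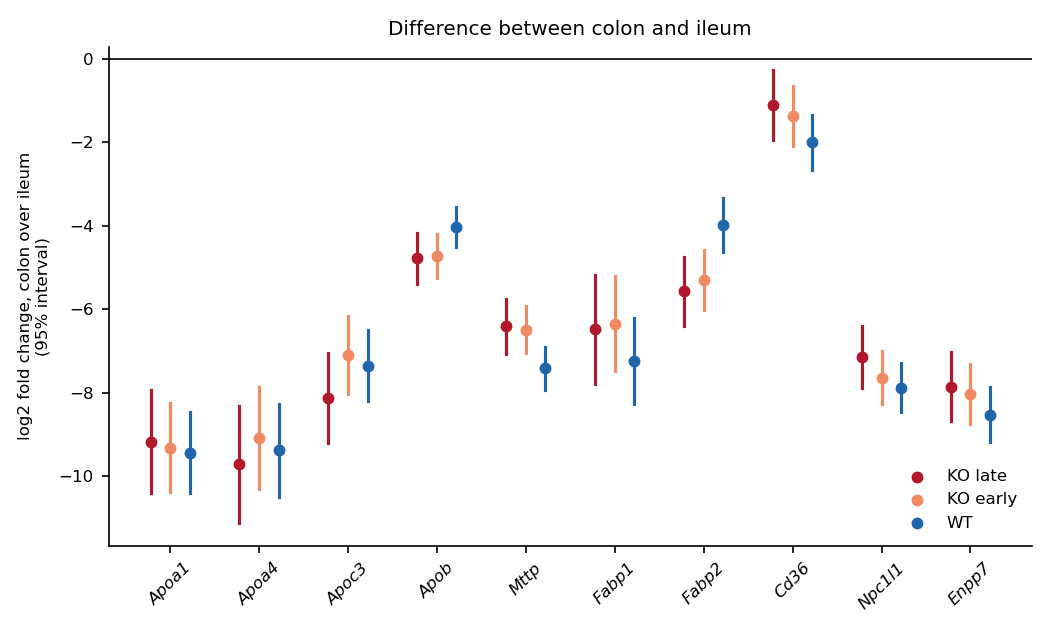
Log2 fold change of colon over ileum for each gene in KO late, KO early and WT, with 95% intervals from the limma fit over all 24 libraries. All points lie below 0, from about -1 to -2 for Cd36 to below -9 for Apoa1 and Apoa4, and the WT point is the highest of the 3 for Apob and Fabp2.

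Per kilobase of transcript the order of the genes was not the same in the 2 tissues. In WT non-irradiated ileum Fabp2 led with 60295 ± 22479 normalised reads per kilobase (SD, n = 3), followed by Apoa1 with 36408 ± 7763, and the ranges of these 2 genes overlapped. Apoa4 (8200 ± 2800), Apob (7672 ± 1718), Fabp1 (7524 ± 2921) and Mttp (5438 ± 1464) came next, each overlapping with the following gene, and Apoa1 lay above Apoa4 with no overlap. Enpp7 (3852 ± 344), Npc1l1 (2397 ± 294), Apoc3 (1398 ± 493) and Cd36 (81.4 ± 17.2) followed, and the last 3 did not overlap with their neighbours. In WT non-irradiated colon Fabp2 again led with 4434 ± 884 normalised reads per kilobase, and Apob was second with 524 ± 170, each apart from the next gene. From Apoa1 (62.1 ± 25.9) through Fabp1 (43.8 ± 6.0), Mttp (38.4 ± 3.4), Cd36 (22.5 ± 18.7), Apoa4 (22.3 ± 8.7), Npc1l1 (10.98 ± 2.30) and Enpp7 (9.27 ± 3.10) to Apoc3 (7.95 ± 0.78), each gene overlapped with the next. Cd36 was thus the lowest gene in ileum by a wide margin and in the middle of the order in colon.

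Other genes of the pathway were mostly lower in colon as well. Over all 19588 genes tested, 2129 were called lower and 2107 higher in WT colon than in WT ileum. Of 8 further genes of lipid uptake and the brush border, 6 were called lower and 1 higher in WT colon than in WT ileum, with a median log2 fold change of -3.25. The lowest values were those of Asah2 (-4.70 ± 0.24), the neutral ceramidase that follows Enpp7 in sphingomyelin digestion, Abcg8 (-4.49 ± 0.31), a sterol exporter, and its partner Abcg5 (-4.05 ± 0.28). Scarb1, the high-density lipoprotein receptor, was the gene higher in colon (1.76 ± 0.25). Of 10 genes of fatty acid activation and re-esterification 7 were lower and 1 higher, with a median of -2.59. Soat2, which esterifies cholesterol, differed by -6.14 ± 0.32, Mogat2, the intestinal monoacylglycerol acyltransferase, by -5.45 ± 0.32, and Dgat1, which completes triglyceride, by -4.09 ± 0.27, while the acyl-CoA synthetase Acsl3 was higher in colon by 2.33 ± 0.31.

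Of 16 genes of chylomicron assembly, secretion and lipid droplets 14 were tested in WT mice, 10 of them lower and 2 higher in colon, with a median of -1.66. Pla2g12b, which takes part in lipoprotein lipidation in mice, differed by -4.67 ± 0.30, Tm6sf2 by -4.42 ± 0.32 and Apoc2, the activator of lipoprotein lipase, by -4.02 ± 0.54. The lipid droplet coat protein Plin2 (1.88 ± 0.32) and the Apob mRNA editing enzyme Apobec1 (0.89 ± 0.18) were the 2 higher in colon. The Apobec1 call was lost with WT irradiated mice alone (0.60 ± 0.28, limma, adjusted p = 0.226). Of the other fatty acid binding proteins 2 of 4 were tested, and the ileal bile acid binding protein Fabp6 was lower in colon (-8.28 ± 0.49). Among 14 transcription regulators of lipid genes 6 were lower and 1 higher, where 2129 of all 19588 genes were lower and 2107 higher. Gata5 (-5.57 ± 0.28), Creb3l3 (-4.77 ± 0.40), which in mouse intestine and liver drives apolipoprotein genes, and Gata4 (-3.91 ± 0.22), which sets jejunal identity, were the lowest, and Pparg was higher (3.02 ± 0.14). All 8 brush border markers of mature small intestinal enterocytes, such as sucrase-isomaltase (Sis) and lactase (Lct), were lower in colon too, with a median of -6.70, close to the -7.39 of the 10 genes.

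Measured against WT colon, Mttp was called higher in KO late colon, and Fabp2 was called lower in both KO groups. The other genes, 7 of the 9 tested in KO late and 8 of 9 in KO early, did not pass the test. In KO late 2 of 9 genes were called, 1 higher and 1 lower, where 4.12% of all 19145 genes tested were called, 1.61% higher and 2.50% lower. In KO early 1 of 9 was called, which was lower, where 1.08% of all genes were called, 0.585% higher and 0.496% lower. The median log2 fold change of the 9 genes was 0.11 in KO late and 0.23 in KO early, against -0.02 and 0.07 over all genes tested. The fits that leave out a WT mouse differ in how much they call. In KO late 15.3% of all genes were called without mouse 61 and 38.6% without mouse 75, against 1.34 to 2.83% without any of the other 6 mice, so calls without mouse 61 or 75 stand beside a much higher background. In KO early 0.565% were called without mouse 61 and 2.09% without mouse 75. WT here is the mean of the WT irradiated and WT non-irradiated groups, which both KO comparisons share. No WT group was taken at 2 weeks post chimerism. In KO early against WT, in either tissue, genotype and weeks post chimerism therefore cannot be told apart. The WT mean also includes the WT non-irradiated mice, labelled as non treated, so KO late against it mixes genotype with treatment. WT irradiated, at 8 weeks, is the WT group that matches KO late in time. Against it alone 0 of the 9 genes were called in KO late colon.

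Mttp had 252.7, 301.8 and 423.0 normalised reads in KO late colon and 184.7, 313.4, 313.5 and 438.9 in KO early colon. It had 109.5 and 153.9 in WT irradiated colon and 136.8, 157.5 and 161.8 in WT non-irradiated colon. Every KO library thus lay above every WT library, with the closest pair at 184.7 in mouse 100 and 161.8 in mouse 72. In KO late the gene was 2.26-fold higher (log2 fold change 1.18 ± 0.28, adjusted p = 0.0315), and in KO early 2.12-fold (1.09 ± 0.26, adjusted p = 0.0632, not called). Over all genes 5.43% lay wholly above WT in KO late and 2.12% in KO early. Without WT mouse 61 the change in KO late was 1.30 ± 0.31 (adjusted p = 0.0305, with 15.3% of all genes called), and without WT mouse 75 it was 1.19 ± 0.29 (adjusted p = 0.00851, with 38.6% called). In KO early it was 1.21 ± 0.29 without mouse 61 (adjusted p = 0.0923) and 1.10 ± 0.26 without mouse 75 (adjusted p = 0.0517). It remained positive without any single mouse, at 0.97 to 1.34, and was no longer called without mouse 49, 50, 57, 59, 72 or 73 (adjusted p = 0.0519 to 0.182). Without mouse 100 the KO early change was 1.32 ± 0.24 and passed the test (adjusted p = 0.0183). Against either WT group alone Mttp was not called in KO late. It was at 1.29 ± 0.35 against WT irradiated (adjusted p = 0.113) and at 1.07 ± 0.31 against WT non-irradiated (adjusted p = 0.0861).

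Fabp2 had 1240.8, 1262.2 and 2029.8 normalised reads in KO late colon and 617.5, 1204.4, 1698.0 and 2013.7 in KO early colon. It had 3158.0 and 3764.1 in WT irradiated colon and 3294.7, 4733.7 and 4808.8 in WT non-irradiated colon. All 7 KO libraries lay below all 5 WT libraries, and the highest KO value was 2029.8 against the lowest WT value of 3158.0. The gene was 2.59-fold lower in KO late (log2 fold change -1.37 ± 0.34, adjusted p = 0.0375) and 3.02-fold lower in KO early (-1.59 ± 0.31, adjusted p = 0.0261). Over all genes 10.5% lay wholly below WT in KO late and 4.29% in KO early. Without WT mouse 75 the change was -1.46 ± 0.34 in KO late (adjusted p = 0.00787, with 38.6% of all genes called) and -1.68 ± 0.32 in KO early (adjusted p = 0.0224). Without WT mouse 61 it was -1.31 ± 0.38 in KO late (adjusted p = 0.0443, with 15.3% called) and -1.53 ± 0.36 in KO early (adjusted p = 0.0831). The KO late call was also lost without mouse 49, 50, 59, 72 or 73 (adjusted p = 0.0804 to 0.179), and the KO early call without mouse 59, 72, 73, 117 or 118 (adjusted p = 0.0591 to 0.0814). Against WT irradiated alone both calls were lost, at -1.23 ± 0.42 in KO late (adjusted p = 0.218) and -1.45 ± 0.40 in KO early (adjusted p = 0.293). Across the 12 colon libraries the log2 values of Mttp and Fabp2 ran opposite to each other (Pearson's r = -0.87), while in ileum they ran together (r = 0.80). These are descriptions over 12 libraries that include both KO and WT mice.

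**Figure D3:**
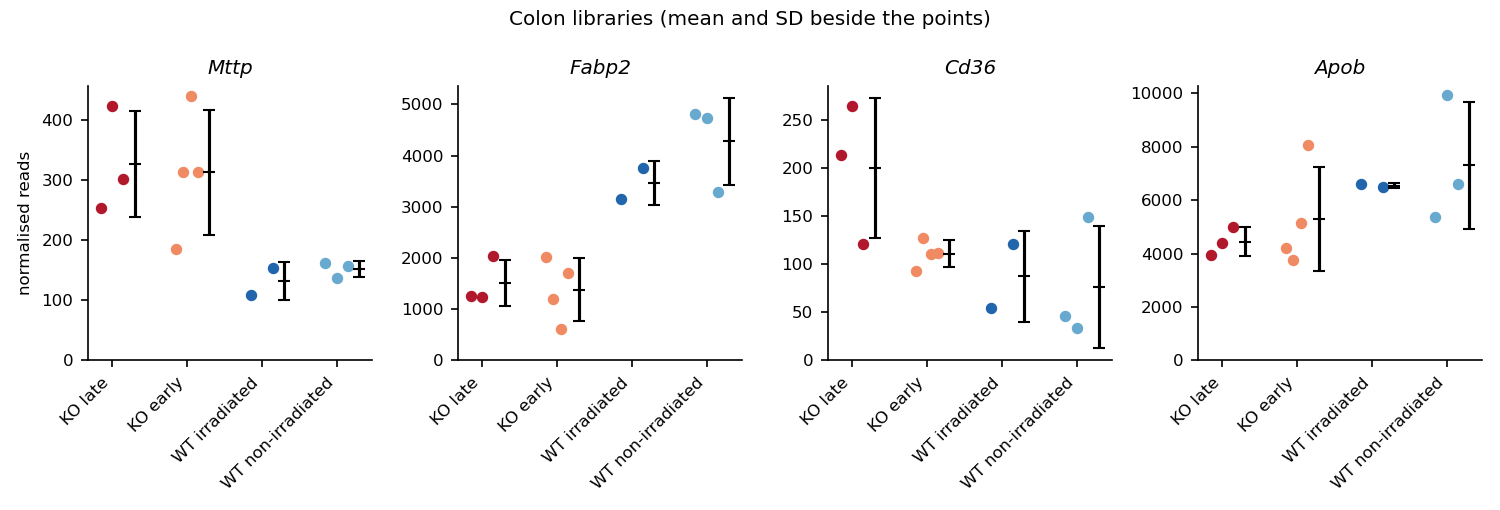
Normalised reads of Mttp, Fabp2, Cd36 and Apob in each colon library by group, with the group mean and SD beside the points and all axes from 0. KO points lie above all WT points for Mttp and below all WT points for Fabp2, while those of Cd36 overlap with WT.

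Cd36 had 121.3, 214.3 and 264.8 normalised reads in KO late colon and 93.6, 111.1, 112.4 and 127.5 in KO early colon. It had 54.3 and 121.2 in WT irradiated colon and 34.2, 45.9 and 149.5 in WT non-irradiated colon. The WT values fell apart, since mice 61 and 75 reached the KO early range and the other 3 WT mice did not. The difference between KO late and WT was 1.41 ± 0.44 and did not pass the test (adjusted p = 0.0789). It was 1.70 ± 0.46 without mouse 61 (adjusted p = 0.0392) and 1.73 ± 0.32 without mouse 75 (adjusted p = 0.00436), in fits that called 15.3% and 38.6% of all genes. In KO early the difference was 0.63 ± 0.40 (adjusted p = 0.552), with 0.92 ± 0.43 without mouse 61 (adjusted p = 0.342) and 0.95 ± 0.29 without mouse 75 (adjusted p = 0.0831). Cd36 is also a gene of macrophages, endothelium and adipocytes, so the markers of these cells are given beside it. The leukocyte sum was 502 to 986 normalised reads in KO late colon, 481 to 631 in KO early colon and 349 to 786 in WT colon. The endothelial sum was 422 to 677 in KO late, 378 to 450 in KO early and 319 to 630 in WT, with Cldn5 at 0 in all KO late and all WT non-irradiated colon libraries. The adipocyte sum was 63.1 to 94.1 in KO late, 42.6 to 62.2 in KO early and 32.7 to 72.4 in WT. None of these marker genes was called in either comparison by limma, with an unadjusted p under 0.05 for 2 genes of each list in KO late and for 1 endothelial gene in KO early. Among all 19145 genes tested that unadjusted p was reached by 6436 in KO late and by 2393 in KO early. In KO late 8 of 8 leukocyte genes (median log2 fold change 0.69), 3 of 4 endothelial genes (0.74), 4 of 4 adipocyte genes (0.75) and 9 of 9 stromal genes (0.78) had positive values. In KO early these were 7 of 8 (0.36), 3 of 4 (0.22), 3 of 4 (0.33) and 9 of 9 (0.46). Of all 19145 genes tested 9401 had positive values in KO late and 10700 in KO early. The part of the marked cells in the Cd36 values was not tested.

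Cd36 in colon followed the reads assigned to receptor genes closely. Over the 12 colon libraries its log2 value correlated with the log2 of receptor RPM at Pearson's r = 0.97 and Spearman's rho = 0.95. The permutation p was 1e-05 for r, the smallest that 100000 resamples can give, and 3e-05 for rho, and the adjusted p over 19 relations was 0.00019 for r and 0.00057 for rho. Without the 2 libraries farthest from the median r was 0.96. With receptor reads as a covariate the Cd36 difference between KO late and WT was -0.13 ± 0.29 (adjusted p = 0.871). Mttp correlated at r = 0.69 (adjusted permutation p = 0.0472; r = 0.62 without the 2 farthest) and at rho = 0.52 (adjusted permutation p = 0.166). Fabp2 correlated at r = -0.64 (adjusted permutation p = 0.0553; r = -0.39 without the 2 farthest) and at rho = -0.58 (adjusted permutation p = 0.109). With the covariate Mttp was at 0.82 ± 0.36 in KO late (adjusted p = 0.356) and 0.93 ± 0.25 in KO early (adjusted p = 0.0574). Fabp2 was then at -0.91 ± 0.46 in KO late (adjusted p = 0.424) and -1.39 ± 0.32 in KO early (adjusted p = 0.0325). Receptor reads and group are themselves linked in colon, because all 3 KO late libraries lie above all WT libraries.

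**Figure D4:**
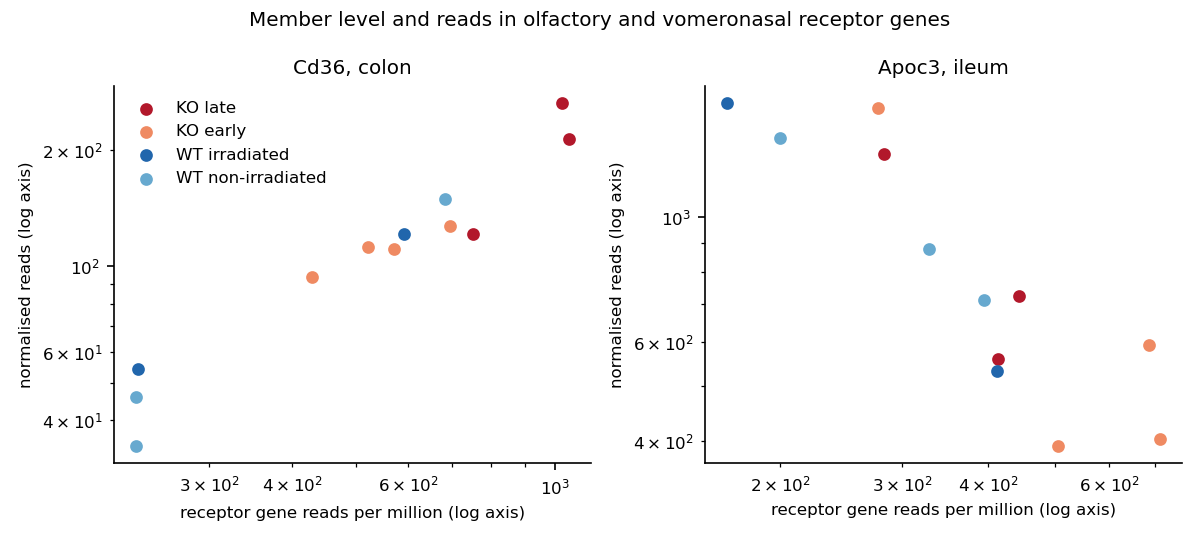
Normalised reads of Cd36 in colon and of Apoc3 in ileum against reads in olfactory and vomeronasal receptor genes per M reads (both axes log), with 1 point per library coloured by group. Cd36 rises with receptor reads (r = 0.97) and Apoc3 falls with them (r = -0.88), and WT libraries lie on the same trend as KO libraries.

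The remaining colonic genes did not pass the test. Apob had 3941.5, 4406.0 and 4997.6 normalised reads in KO late colon, against 5360.5 to 9938.4 in the 5 WT colon libraries. All KO late values were below all WT values, as for 10.5% of all genes tested. The difference of -0.62 ± 0.28 was not called (adjusted p = 0.139), nor was it without mouse 61 (-0.62 ± 0.32, adjusted p = 0.161) or mouse 75 (-0.64 ± 0.29, adjusted p = 0.0896). In KO early Apob had 3743.7 to 8052.9 and overlapped with WT (-0.43 ± 0.26, adjusted p = 0.532). Npc1l1 (0.47 ± 0.31), Enpp7 (0.51 ± 0.39), Apoa1 (0.11 ± 0.57), Apoa4 (-0.30 ± 0.54) and Fabp1 (-0.32 ± 0.55) all overlapped with WT in KO late, with adjusted p from 0.277 to 0.899. Apoa1, Apoa4 and Fabp1 stood at 5.9 to 144.1 normalised reads in colon, and the 95% interval of each KO late difference (-1.11 to 1.32, -1.46 to 0.86 and -1.50 to 0.86 on the log2 scale) held both 0 and a change of 2-fold in at least 1 direction.

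Few of the other pathway genes were called in KO colon. Over all 19145 genes tested, 1.61% were called higher and 2.50% lower in KO late, and 0.585% and 0.496% in KO early. In KO late 1 of 8 uptake genes was higher, the fatty acid transporter and very-long-chain acyl-CoA synthetase Slc27a2. It had 212.1, 239.0 and 282.4 normalised reads in KO late colon, against 93.0 to 107.0 in the 5 WT colon libraries, and KO early lay at 91.7 to 129.7. The difference in KO late was 1.27 ± 0.21 (adjusted p = 0.00452), it was 1.23 ± 0.26 with receptor reads as a covariate (adjusted p = 0.0410), and in KO early it was 0.16 ± 0.19 (adjusted p = 0.716). Of 10 re-esterification genes 1 was higher in KO late, Agpat9, the glycerol-3-phosphate acyltransferase GPAT3 (1.26 ± 0.33, adjusted p = 0.0478), and it was not called without mouse 50, 57, 59, 72 or 73 (adjusted p = 0.0784 to 0.181). Nor was Agpat9 called with receptor reads as a covariate (1.29 ± 0.47, adjusted p = 0.256), with no filter (adjusted p = 0.0558), against WT irradiated alone (adjusted p = 0.179) or against WT non-irradiated alone (adjusted p = 0.0945). In KO early 1 was lower, Acsl3 (-1.45 ± 0.29, adjusted p = 0.0301), which was not called without mouse 59, 61, 72, 73, 117 or 118 (adjusted p = 0.0657 to 0.138). Nor was Acsl3 called against WT irradiated alone (adjusted p = 0.290) or against WT non-irradiated alone (adjusted p = 0.0606). Its call was also lost with edgeR's quasi-likelihood test (adjusted p = 0.0537) and in limma with only the groups compared (adjusted p = 0.0596). None of the 14 assembly and droplet genes tested was called in either comparison by limma, with an unadjusted p under 0.05 for 4 in KO late and for 3 in KO early. Over all 19145 genes tested, limma gave an unadjusted p under 0.05 for 6436 in KO late and for 2393 in KO early. Of 14 regulators 2 were lower in KO late: Ppara, the receptor that switches on fatty acid oxidation, and Ppargc1a, a coactivator of mitochondrial genes.

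Ppara had 210.1, 220.7 and 282.4 normalised reads in KO late colon, against 569.6 to 829.6 in the 5 WT colon libraries (-1.58 ± 0.31, adjusted p = 0.0119). Ppargc1a had 463.6, 816.9 and 868.3 in KO late colon, against 1680.2 to 3291.0 in WT colon (-1.73 ± 0.37, adjusted p = 0.0195). For both genes the KO late libraries lay wholly below the WT libraries, as they did for 10.5% of all genes tested. With receptor reads as a covariate neither was called (adjusted p = 0.158 for Ppara and 0.297 for Ppargc1a), nor against WT irradiated alone (adjusted p = 0.0625 and 0.117). Slc27a2, Agpat9, Ppara and Ppargc1a were each called in KO late without mouse 61 (adjusted p = 0.0133, 0.0446, 0.0196 and 0.0180) and without mouse 75 (adjusted p = 0.00350, 0.0150, 0.00549 and 0.00658), again with 15.3% and 38.6% of all genes called. In KO late without mouse 50 or mouse 59 neither was called, with an adjusted p of 0.0693 and 0.0550 for Ppara and of 0.0662 and 0.0924 for Ppargc1a, and Ppargc1a was not called without mouse 57 either (adjusted p = 0.0663). In KO early Ppara was at -0.87 ± 0.28 (adjusted p = 0.193) and Ppargc1a at -1.42 ± 0.34 (adjusted p = 0.0711). Hnf4a averaged 8359 ± 3787 normalised reads in KO late colon (SD, n = 3), 9855 ± 2388 in KO early colon (n = 4) and 10636 ± 2679 in WT colon (n = 5), and Creb3l3 averaged 158 ± 98, 96.7 ± 44.1 and 108 ± 29. Neither was called. Gata4 had 131.6 to 158.8 in KO late colon, 86.5 to 154.5 in KO early colon and 56.0 to 113.3 in WT colon, and its KO late difference of 0.99 ± 0.29 was not called (adjusted p = 0.0711). Fabp6 had 132.8 to 485.0 normalised reads in KO early colon, against 37.0 to 115.0 in WT colon, a difference of 1.94 ± 0.54 that was not called either (adjusted p = 0.120). None of the 8 mature enterocyte markers was called in KO late or KO early colon by limma, with an unadjusted p under 0.05 for 2 of them in KO late and for 1 in KO early. Over all 19145 genes the counts at that unadjusted p were 6436 and 2393.

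**Figure D5:**
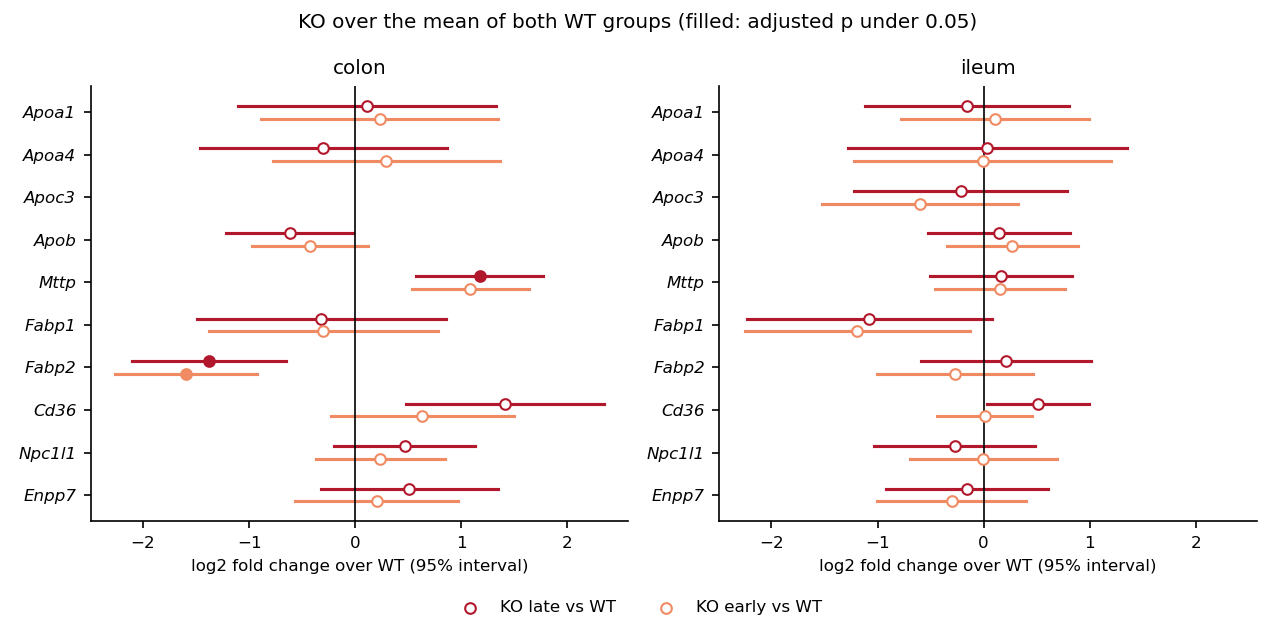
Log2 fold change of KO late and KO early over WT in colon and ileum for each gene, with 95% intervals from limma, and filled points where the adjusted p was under 0.05. The filled points are Mttp (KO late) and Fabp2 (KO late and KO early) in colon, and in ileum no point is filled.

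In ileum no gene of the 10 was called in KO late or KO early against WT by limma, edgeR's quasi-likelihood test or DESeq2, and limma called none of the 19122 genes tested (0%). By limma 409 genes had an unadjusted p under 0.05 in KO late and 6197 in KO early. Of the 10, the gene at an unadjusted p under 0.05 was Cd36 in KO late and Fabp1 in KO early. Cd36 had 348.4, 397.0 and 487.7 normalised reads in KO late ileum, against 242.8 to 344.2 in the 5 WT ileum libraries, with no overlap but a narrow gap between 348.4 and 344.2. The difference was 0.51 ± 0.23 (unadjusted p = 0.0400, adjusted p = 1.00), and 1.31% of all genes lay wholly above WT in this comparison. In KO early ileum Cd36 had 199.3 to 347.6 and overlapped with WT (0.01 ± 0.21).

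Fabp1 had 558.4, 2403.7 and 2584.5 normalised reads in KO late ileum and 754.6, 991.4, 1754.3 and 2912.9 in KO early ileum. It had 1807.9 and 3791.8 in WT irradiated ileum and 2299.5, 4985.8 and 5196.2 in WT non-irradiated ileum. The groups overlapped, and the differences of -1.08 ± 0.54 in KO late (unadjusted p = 0.0645, adjusted p = 1.00) and -1.19 ± 0.49 in KO early (unadjusted p = 0.0301, adjusted p = 0.120) did not pass the test. In colon Mttp was called in KO late and Fabp2 in both KO groups. In ileum Mttp and Fabp2 differed by 0.16 ± 0.31 and 0.21 ± 0.37 in KO late and by 0.15 ± 0.29 and -0.27 ± 0.34 in KO early. The 95% interval of the ileal Fabp2 difference ran from -0.59 to 1.01 in KO late and from -1.01 to 0.46 in KO early, and that of Mttp from -0.51 to 0.83 and from -0.46 to 0.77.

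The test of whether the KO difference itself differed between colon and ileum called none of the 10 genes by limma, edgeR or DESeq2, whichever KO group was taken, with 2 genes at an unadjusted p under 0.05 in each by limma. Over all 19588 genes 0.602% were called in KO late and 0.414% in KO early, and 2546 and 2690 had an unadjusted p under 0.05 by limma. Fabp2 was at -1.58 ± 0.51 in KO late (adjusted p = 0.198) and -1.32 ± 0.47 in KO early (adjusted p = 0.192), and Mttp at 1.02 ± 0.41 (adjusted p = 0.332) and 0.93 ± 0.37 (adjusted p = 0.251). With the mouse as a block, which uses that both tissues came from the same animal, Fabp2 in KO late passed the test (-1.58 ± 0.41, adjusted p = 0.0424). Without mouse 100 Mttp in KO early passed it (1.44 ± 0.31, adjusted p = 0.0336). Among the pathway genes Slc27a2 was called in KO late, with a change in colon larger by 1.22 ± 0.27 than in ileum (adjusted p = 0.0313). That call held without mouse 75 (adjusted p = 0.0406) and was lost without any of the other 7 mice (adjusted p = 0.0751 to 0.180). It was also lost with total-count scaling (adjusted p = 0.0888), against WT irradiated alone (adjusted p = 0.210) and against WT non-irradiated alone (adjusted p = 0.0938).

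KO late and KO early did not differ by call for any of the 10 genes in either tissue, by any of the 3 tools, with none at an unadjusted p under 0.05 by limma. Over all genes 0.00522% were called in colon and 0% in ileum. An unadjusted p under 0.05 by limma was reached by 2065 of 19145 genes in colon and by 4697 of 19122 in ileum. Cd36 had the widest differences relative to error. In colon it was 0.78 ± 0.45 (adjusted p = 0.471), and in ileum the KO late values of 348.4 to 487.7 lay just above the KO early values of 199.3 to 347.6 (0.50 ± 0.23, adjusted p = 0.203). In ileum 14.0% of all genes lay wholly above KO early. Mttp and Fabp2 in colon differed between the 2 KO groups by 0.09 ± 0.29 and 0.22 ± 0.35, with 95% intervals from -0.53 to 0.71 and from -0.53 to 0.97.

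WT irradiated and WT non-irradiated mice did not differ by call for any of the genes in either tissue by any of the 3 tools, with none at an unadjusted p under 0.05 by limma, and 0% of all genes were called. An unadjusted p under 0.05 by limma was reached by 66 of 19145 genes in colon and by 187 of 19122 in ileum. With 2 and 3 mice the comparisons of the WT groups are coarse. Apoa4 had 13.4 and 15.6 normalised reads in WT irradiated colon, against 22.5, 46.6 and 52.2 in WT non-irradiated colon (-1.34 ± 0.67). Fabp1 had 16.4 and 17.3 there, against 21.7, 22.9 and 28.0 (-0.49 ± 0.68). Both pairs of groups were separate, as 2.23% of all genes were in this direction, and both genes are near the low end of detection in colon.

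Within ileum the 10 genes varied widely between mice of the same group, and many of them varied together. Apoa4 had 11058.1, 15206.6 and 28403.3 normalised reads in KO late ileum and 7242.0, 13429.5, 13825.5 and 53200.9 in KO early ileum. It had 8344.6 and 43180.8 in WT irradiated ileum and 9419.8, 15759.2 and 19470.7 in WT non-irradiated ileum, so the highest library was 7.35-fold above the lowest. The high libraries were those of mouse 100 in KO early, mouse 59 in WT irradiated and mouse 49 in KO late. Apoc3 was also highest in these mice and mouse 72, at 1562.8 in mouse 100, 1594.3 in mouse 59, 1293.6 in mouse 49 and 1383.7 in mouse 72, against 391.3 to 878.3 in the other ileal libraries. Apob was the steadiest, with a ratio of highest to lowest of 2.32, and Cd36 followed with 2.45, while Fabp1 spanned 9.31-fold.

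Over the 12 ileum libraries the log2 values of the 45 pairs of genes correlated at -0.33 to 0.94, with a median of 0.48, and 39 pairs were positive. The highest were Apoa1 with Apoa4 (0.94) and Apoa1 with Npc1l1 (0.94), and Apoa4 with Apoc3 was at 0.87. In colon the 36 pairs of the 9 genes tested ran from -0.87 to 0.77 with a median of 0.07, and 19 were positive. These values are descriptions over libraries that share depth, scaling and receptor reads. Creb3l3, in KO early ileum, was likewise highest in mouse 100 at 6617.1 normalised reads, against 1711.9 to 2637.2 in the other 3 mice.

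The ileal level of several genes moved against receptor reads. Apoc3 correlated at r = -0.88 and rho = -0.87 over the 12 ileum libraries (adjusted permutation p = 0.00114 and 0.00266), and r was -0.83 without the 2 libraries farthest from the median. Enpp7 (r = -0.79, rho = -0.89), Apoa4 (r = -0.74, rho = -0.76) and Npc1l1 (r = -0.69, rho = -0.75) had adjusted permutation p of 0.0168, 0.0340 and 0.0472 for r and of 0.00257, 0.0217 and 0.0217 for rho. Without the 2 farthest libraries r was -0.88 for Enpp7, -0.69 for Apoa4 and -0.60 for Npc1l1. Apoa1 (r = -0.66, rho = -0.71) and Fabp1 (r = -0.65, rho = -0.76) had adjusted permutation p of 0.0516 and 0.0530 for r and of 0.0323 and 0.0217 for rho. Mttp (r = -0.29, rho = -0.34) and Fabp2 (r = -0.45, rho = -0.38) had adjusted permutation p of 0.461 and 0.209 for r and of 0.366 and 0.333 for rho. Apob (r = -0.08, rho = -0.08) and Cd36 (r = 0.26, rho = 0.34) showed no such relation at this number of libraries, with adjusted permutation p of 0.914 and 0.504 for r and of 0.881 and 0.366 for rho. Receptor RPM in ileum were 282 to 443 in KO late, 277 to 711 in KO early, 167 and 412 in WT irradiated and 200 to 395 in WT non-irradiated. Mice 117, 118 and 120 of KO early (506 to 711 RPM) lay above all libraries of the other groups. The permutations, here and in colon, ignored group. Their p-values therefore do not set a relation to receptor reads apart from a difference between groups.

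The genes whose pattern was most like the mean of the 10 over the 12 ileum libraries were 9130019P16Rik (r = 0.94), Gm6034, BC005624, Cyp4b1 and Sec24d (each r = 0.93), among 10702 genes that averaged 100 or more normalised reads. Over the 12 colon libraries, with the mean of the 9 genes tested, they were Anpep (r = 0.90), the brush border aminopeptidase N, and then Grap2 (0.70), Sptb (0.68), Acer2 (0.68) and Nav1 (0.66), among 10664 genes.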

How the data were processed

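Epithelial RNA of colon and ileum was measured in 24 libraries of 12 mice with a stranded total RNA kit and single-end 50-base reads, per the labels, whose molecule field names polyA RNA instead. The tools were bcl2fastq, HISAT 0.1.6 and HOMER, on build mm9, per the submitters' processing notes. The sources used here do not give whether counting used strand. The authors deposited 1 table of normalised signal, in which each value is reads divided by 1 factor per library. All low values were whole multiples of 1 read's worth (100% within 0.05 of a whole read), so reads could be recovered, and 1 read was worth 0.698 to 2.22 units.

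Genes with at least 10 normalised reads in 2 or more libraries were tested with limma 3.58.1 (trend, R 4.3.3) on log2(value + 1). Fold changes are on that scale and understate the change of low genes. Adjusted p-values are Benjamini-Hochberg over all genes tested, and a gene was called at an adjusted p under 0.05. Each tissue was fitted as 4 groups of 12 libraries, and WT is the equal-weight mean of both WT groups. Tissue differences and the tissue by genotype terms used all 24 libraries as 8 groups. edgeR 4.0.16 (quasi-likelihood) and DESeq2 1.42.0 on the recovered reads were alternatives, as were other pseudocounts, filters, scalings, WT groups, receptor reads as a covariate, and leaving out mice. The models were checked on simulated data.

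Colon and ileum libraries with the same number come from the same mouse, per the labels. Their deviations from group means correlated at -0.36 to 0.56 (median 0.22), above 0.1 in 5 of 10 mice, with the 2 WT irradiated mice left out. Replicates are separate mice, and 26 replicate pairs correlated at 0.930 to 0.981. Intervals cover the spread between these mice. Levels per kilobase used the longest coding transcript of GENCODE M21 on another build than the counts, so they are approximate. Promoters and gene neighbours were taken by name from RefSeq GRCm38.p6.

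The genes described and the pathway and marker lists were chosen with earlier results of these data known. Named are all 10 genes, up to 3 called genes per pathway list and direction, Fabp6, Hnf4a, Creb3l3, Gata4 and Il10ra, and the 5 genes most like the mean of the 10 in each tissue.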

Additional observations from a re-analysis of the deposited data

Results flagged for a closer look

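Only KO early had 4 libraries per tissue, so the gap rule was applied to 20 sets, the 10 genes in each of the 2 tissues. Of these, 6 had a library set apart from the other 3, and in all 6 it was the ileum of mouse 100. Chance flags about 1 in 20 sets that are independent. The 6 flags are genes of 1 library, and many of the genes varied together in ileum, so they do not count as separate events. Apoa1 had 93508.8 normalised reads in that library, against 24315.8 to 33123.7 in the other KO early ilea. Apoa4 had 53200.9, against 7242.0 to 13825.5. Apob had 191491, against 114296 to 123746. Apoc3 had 1562.8, against 391.3 to 591.4. Fabp2 had 104615, against 35261.8 to 44606.3. Npc1l1 had 18751.9, against 8158.1 to 9063.6. The same library had the highest share of Rn45s (29.4%), the largest value of 1 read (2.22 units) and the lowest receptor reads of its group (277 RPM). It had 8.24 M reads outside Rn45s, against 10.9 to 12.7 M in the other KO early ilea. In recovered reads Apob was lower there (86382, against 109521 to 140404), and Npc1l1 lay within the others (8459, against 8097 to 10953). Apoa1, Apoa4, Apoc3 and Fabp2 stayed above the others in recovered reads. The part of scaling, Rn45s and receptor reads in these levels was not tested. Without mouse 100 limma called none of the 10 genes in KO early ileum against WT. Closest to the threshold were Fabp1 (log2 fold change -1.55 ± 0.48, adjusted p = 0.0507), Apoc3 (-1.05 ± 0.36, adjusted p = 0.0583), Enpp7 (-0.68 ± 0.24, adjusted p = 0.0619) and Fabp2 (-0.63 ± 0.25, adjusted p = 0.0776). Apoa1 (-0.30 ± 0.33), Apoa4 (-0.58 ± 0.47), Apob (0.09 ± 0.23), Npc1l1 (-0.28 ± 0.29), Mttp (-0.12 ± 0.22) and Cd36 (0.01 ± 0.23) had an adjusted p of 0.330 to 0.961.

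The KO late difference of Slc27a2 from WT was larger in colon than in ileum by 1.22 ± 0.27 on the log2 scale (limma tissue by genotype term, adjusted p = 0.0313). The call was lost with total-count scaling (adjusted p = 0.0888), against either WT group alone (adjusted p = 0.210 and 0.0938), and without any mouse other than mouse 75 (adjusted p = 0.0751 to 0.180).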

How the results depend on the processing

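Of 2477 values of single genes recomputed under the alternatives, 2395 kept their side of the threshold, 75 lost a call, 6 gained one and 1 uncalled value was called in the opposite direction. Of the 2395, 157 changed sign, none of them called, and in 4 of these the original value was over 0.5 in size, each with receptor reads as a covariate: Cd36 in colon in KO late against WT (-0.13, against 1.41), in KO early against WT (-0.06, against 0.63) and between the KO groups (-0.07, against 0.78), and Apoc3 in KO early ileum (0.46, against -0.60). The value called in the opposite direction was Apoa4 in KO early ileum, at 1.44 with receptor reads as a covariate (adjusted p = 0.0351), against -0.01 without it. In KO late colon, with 2 of 9 genes called against WT, the count was 0 with the covariate, 0 against WT irradiated alone, 1 against WT non-irradiated alone, and 0 to 3 without 1 mouse. In KO early colon, with 1 called, it was 2 with DESeq2, 0 against WT irradiated alone, and 0 to 2 without 1 mouse. In KO early ileum, with 0 called, it was 1 with the covariate. For the tissue by genotype term, with 0 called, it was 1 in KO late with the mouse as a replicate block and 0 to 1 in KO early without 1 mouse. The block changed no other count of called genes among the 10. The cause of these shifts was not tested. Over all genes, calls in KO late colon numbered 788 in limma, 2084 with DESeq2, 196 with the covariate, 197 against WT irradiated alone, 476 against WT non-irradiated alone and 255 to 7360 without 1 mouse (7360 without mouse 75 and 2917 without mouse 61). In KO early colon they numbered 207 in limma, 849 with DESeq2, 338 with total-count scaling, 689 with the covariate, 39 and 107 against WT irradiated and WT non-irradiated alone, and 72 to 399 without 1 mouse. Total-count scaling moved the median of all genes by 0.16 in colon and -0.12 in ileum between the WT groups, and by 0.21, 0.15 and 0.11 between tissues in KO late, KO early and WT. Depth limits Apoc3 in colon most, at 1.2 to 8.5 normalised reads.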
